A study of Mus musculus with 139 samples.

Results

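Mitochondrially encoded transcripts are the RNAs made from the circular genome inside mitochondria. They were taken as every feature whose gene name starts with mt-, whatever its gene type, which gave 37 of the 52885 features in each table. The members were 13 mRNAs, 2 ribosomal RNAs and 22 transfer RNAs, and all 37 lay on the mitochondrial chromosome. All samples came from the mouse embryonic stem cell (ESC) line AID-FBEXOSC2, in which EXOSC2, a subunit of the RNA exosome, carries an auxin-inducible degron. The RNA exosome is the main 3′ to 5′ RNA-degrading complex of the nucleus and cytosol, and addition of the auxin indole-3-acetic acid (IAA, 0.5 mM) directs the tagged protein to degradation. The question common to the tables was how RNA levels change after IAA. The controls are 0 h cells of the same degron line; IAA-treated cells without the degron were not analysed here. A degron acts on protein, so RNA levels of the tagged gene do not check the depletion.

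The 70 libraries used, of 139 samples described, fell into 7 tables, with 2 replicates per group in 6 of them. Nascent RNA was labelled with 1 mM ethynyl uridine for 10 min and captured from ESCs at 0, 1, 2 and 4 h of IAA. Total RNA depleted of ribosomal RNA with Ribo-Zero was measured at 0, 4 and 20 h in ESCs, and at the same times in iMEF, mainly fibroblasts, obtained from the line over 10 days with 1 µM retinoic acid. Ribo-Zero RNA of 4 preparations of ESCs was measured at 0 and 4 h: a chromatin-bound fraction (chrRNP), a nucleoplasmic fraction (np), a cytoplasmic fraction (cyto) and a lysate of whole cells (wcl). RNPmesh is the pellet left after DNase I, urea, NP40 detergent and high salt, and its polyadenylated RNA was measured at 0, 4 and 12 h. Polyadenylated RNA was also measured in ESCs kept with LIF (RAD0) or given 2 µM retinoic acid without LIF for 24 h (RAD1), at 0, 4 and 20 h. The last table holds sucrose gradient fractions 2 to 9 of native nuclear lysate at 0 and 12 h, with 1 library per fraction and time.

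Both strands of the mitochondrial genome are copied by the mitochondrial RNA polymerase into long precursors, which are cut at the transfer RNAs that stand between the other genes. The products are messenger RNAs for subunits of the respiratory chain and ATP synthase, the RNAs of the mitochondrial ribosome's small and large subunits (mt-Rnr1 and mt-Rnr2), and the transfer RNAs used inside the organelle. Short poly(A) tails are added to most of these mRNAs, and decay inside the organelle is carried out by the PNPase and SUV3 proteins rather than by the nuclear and cytosolic exosome. Of the mRNAs, 7 encode subunits of complex I (NADH dehydrogenase), 1 encodes cytochrome b of complex III, 3 encode cytochrome c oxidase subunits (complex IV) and 2 encode ATP synthase subunits (complex V). The heavy-strand precursor carries 28 members, of which 14 are transfer RNAs. The other 9, which are 8 transfer RNAs and mt-Nd6, are coded in the opposite orientation. Positions in the tables and in the RefSeq annotation of GRCm38.p6 had the same start and end for all 37 genes. mt-Rnr1 spans positions 70 to 1024 of chromosome MT, mt-Rnr2 1094 to 2675, mt-Nd1 2751 to 3707, mt-Nd2 3914 to 4951 and mt-Co1 5328 to 6872. Further on, mt-Co3 spans 8607 to 9390, mt-Nd4 10167 to 11544, mt-Nd5 11742 to 13565, mt-Nd6 13552 to 14070 and mt-Cytb 14145 to 15288. None of these genes has an intron, so every position within them is exonic.

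The tables did not measure all members equally. In the nascent table all 13 mRNAs were at 189 RPKM (reads scaled to gene length and library size) or more in every library. In the 6 tables in FPKM (the same for sequenced fragments), mt-Co2, mt-Co3, mt-Atp6, mt-Atp8, mt-Nd3 and mt-Nd4l lay between 0 and 5.77, while the other 7 mRNAs were at 3.26 or more in every library. A stretch of chromosome 1, positions 24611535 to 24616197, was taken to hold copies of mitochondrial genes, these 6 among them. It is annotated as 7 pseudogenes of 294 to 876 bases. Which mitochondrial gene each one copies was not checked. Parts of mt-Co1 and mt-Nd4, which flank the 6 genes, may be copied there too. In the nascent table these pseudogenes had group means of 263 to 1317 RPKM at 0 h and 1.70 to 2.04 times that at 4 h, and whether their reads came from the copies or from the mitochondrial genes was not tested. In the FPKM tables the copies were at 8.26 or less. Because the 6 genes lay near 0 in the FPKM tables, their changes there are not described. In those tables mt-Nd1, mt-Nd2, mt-Nd4, mt-Nd5, mt-Nd6, mt-Cytb and mt-Co1 stand for the mRNAs. Transfer RNAs, 59 to 75 bases long, were mostly lost: between 15 and 22 of the 22 were listed at 0 in every library of a given FPKM table. Levels of the 2 ribosomal RNAs in Ribo-Zero and polyadenylated libraries are what the depletion or selection left. The same holds in polyadenylated libraries for mt-Nd6, which is known to carry little or no poly(A) tail.

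Cell identity was checked with marker lists. In the ESC total RNA libraries, all 7 ESC markers were at 1 FPKM or more, and in iMEF all 7 fibroblast markers were, while none of the ESC markers reached 1 in every 0 h iMEF library. In the ESC series the summed trophoblast list (Cdx2, Hand1, Krt8 and Krt18) was 12.2 to 12.6 FPKM at 0 h and 76.6 to 77.2 at 20 h, and the summed ESC list fell from between 1696 and 1753 to between 472 and 520. Whether this change in cell state plays a part in the 20 h values below was not tested. In bulk samples fewer mitochondrial genomes or cells and less RNA per genome cannot be told apart.

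Nascent RNA from mitochondrial genes rose during the first 4 h of IAA, across mRNAs of complexes I, III, IV and V and both ribosomal RNAs. The share of reads from mitochondrial genes was taken over the library size implied by the RPKM scale. It was 2.07% and 1.89% in the 0 h replicates, 2.06% and 2.14% at 1 h, 2.52% and 2.54% at 2 h, and 3.87% and 3.54% at 4 h. The mean share was 1.98% ± 0.124 (SD, n = 2) before IAA and 3.70% ± 0.233 after 4 h, 1.87 times as high. Both 4 h libraries were above every earlier library, and both 2 h libraries were above every 0 h and 1 h library. The ratio of 4 h to 0 h was 1.92 for summed mRNA reads, 1.81 for ribosomal RNA reads and 1.52 for transfer RNA reads. The implied library sizes were between 5355802 and 11307538 reads, with the 2 mates of a pair counted separately. The share is a share of the reads captured, not an amount per cell. The share is given as a description with no test; an exact permutation test of 2 replicates against 2 has 6 splits and could not give p below 2 of 6.

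The ribosomal RNAs, which head the heavy-strand precursor, carried the most reads of any member in every library. mt-Rnr2 was at 3035 and 2718 RPKM at 0 h, 3063 and 3035 at 1 h, 3537 and 3598 at 2 h, and 5598 and 4909 at 4 h. mt-Rnr1 was at 2866 and 2640 RPKM at 0 h, 2933 and 2950 at 1 h, 3417 and 3372 at 2 h, and 5179 and 4662 at 4 h. For both genes the 4 h libraries lay above all others and the 0 h and 1 h libraries lay close together. On the log2(RPKM + 1) scale, the 4 h change was 0.84 ± 0.11 (SE) for mt-Rnr1 and 0.87 ± 0.12 for mt-Rnr2, with limma adjusted p of 0.0344 and 0.0384.

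Among mRNAs of complexes I and IV, mt-Nd1, mt-Co1 and mt-Co3 had the smallest adjusted p. mt-Nd1, a core subunit of complex I, was at 964 and 866 RPKM at 0 h, 937 and 963 at 1 h, 1220 and 1241 at 2 h, and 1891 and 1882 at 4 h. mt-Co1, the catalytic subunit of cytochrome c oxidase, was at 1346 and 1251 RPKM at 0 h, 1446 and 1506 at 1 h, 1767 and 1766 at 2 h, and 2564 and 2594 at 4 h. The 4 h libraries of both genes stood above all earlier ones with no overlap. The log2 changes at 4 h were 1.05 ± 0.11 for mt-Nd1 (adjusted p = 0.0253) and 0.99 ± 0.10 for mt-Co1 (adjusted p = 0.0252). mt-Co3 had the largest change among the mRNAs, 1.10 ± 0.11, from 510 and 553 RPKM to 1154 and 1129. mt-Cytb had the smallest, 0.76 ± 0.10, from 857 and 828 RPKM to 1443 and 1416, and was called too (adjusted p = 0.0344).

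mt-Nd6, a complex I subunit and the single mRNA read from the other strand, rose with the rest. It was at 3130 and 2505 RPKM at 0 h, 3383 and 3396 at 1 h, 3773 and 3612 at 2 h, and 5892 and 5616 at 4 h. The 4 h change was 1.04 ± 0.14 (adjusted p = 0.0354), within the range of the heavy-strand mRNAs. The sources used here do not say whether reads were counted by strand; if they were not, mt-Nd6 RNA and heavy-strand RNA antisense to it cannot be told apart. Per base, mt-Nd6 was the most abundant of the 7 mRNAs measured in all tables in this nascent RNA, with an RPKM 2.00 to 2.34 times that of mt-Co1 in the 8 libraries, whereas in ESC total RNA at 0 h it was at 0.0701 and 0.0739 times the FPKM of mt-Co1.

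**Figure D1:**
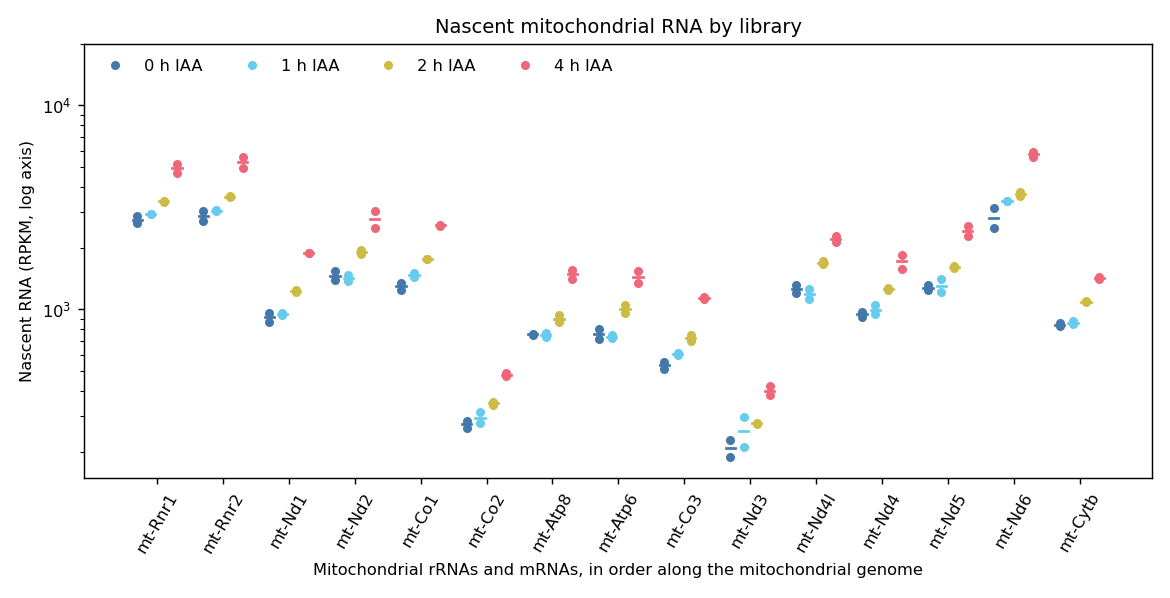
RPKM on a log axis of the 2 ribosomal RNAs and 13 mRNAs in each of the 8 nascent RNA libraries at 0, 1, 2 and 4 h of IAA; each point is 1 library. The 4 h points lie above the 0 h points for every gene, and the 1 h points lie among or near the 0 h points.

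Of the 36 members that passed the filter on low values, 14 were called higher at 4 h and 0 lower, where 1.57% of all 8876 features tested were called higher and 0.338% lower. The median log2 change of the 36 was 0.81 and that of all features was -0.03. The 14 comprised 12 mRNAs and both ribosomal RNAs. mt-Nd3, the exception among mRNAs, was at 228 and 189 RPKM at 0 h and 379 and 420 at 4 h (0.94 ± 0.20, adjusted p = 0.0991), also without overlap. Reads of the 12 called mRNAs include, for mt-Co2, mt-Co3, mt-Atp6, mt-Atp8 and mt-Nd4l, reads that may belong to the nuclear copies. For mt-Co1 and mt-Nd4, which flank these genes, this was not checked. The ratio of mean RPKM at 4 h to 0 h was above 1 for 13 of 13 mRNAs, between 1.70 and 2.15.

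The calls at 4 h rested on all 8 libraries: leaving out any 1 of them, controls included, left 0 members called, with 3 to 20 features called among all genes in place of 139 higher and 30 lower. In those fits the log2 changes of the 14 genes stayed between 0.74 and 1.20, with adjusted p between 0.0663 and 0.168. limma-voom on the reads recovered from the RPKM values, added after seeing the data, called 16 members. The share of all features that it called is not given here. The nuclear transcript Gm42418, which held the largest part of the summed RPKM, went from 21.5% and 23.6% at 0 h to 16.1% and 16.5% at 4 h. After libraries were rescaled so that the median feature was level, all 14 calls were kept. With a pseudocount of 0.1 in place of 1, a single member was called, and 0 were without the filter on low values or with the replicate number as a block.

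At 2 h no member was called by limma, where 0.0113% of features were called and 719 had an unadjusted p under 0.05. limma-voom called 12 members. The share of all features that limma-voom called is not given here, so its count has no background. All 13 mRNAs and both ribosomal RNAs had both 2 h libraries above both 0 h libraries. The share of all features that separated in this way was not counted, and their median log2 change at 2 h was 0.0045. Log2 changes of the mRNAs at 2 h ran from 0.26 for mt-Atp8 to 0.44 for mt-Co1, and the ratios of mean RPKM from 1.20 to 1.36. At 1 h no member was called by limma (background 0.0451%, 487 features with an unadjusted p under 0.05) or by limma-voom, and the mRNA ratios ran from 0.946 to 1.22, with 9 of 13 above 1. The 3 contrasts share the 0 h libraries.

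Transfer RNAs gave fewer reads. A single transfer RNA had between 0 and 1930 reads in a library (median 97.5), and 18 of 22 had 10 or more reads in every library. Of the 21 tested, none was called at 4 h. The median of their log2 changes was 0.69, beside -0.03 over all features. Both 4 h libraries were above both 0 h libraries for 14, and the share of all features that did so was not counted. mt-Tl1, the leucine transfer RNA between mt-Rnr2 and mt-Nd1, was at 1821 and 2220 RPKM at 0 h, 1750 and 1808 at 1 h, 2156 and 2556 at 2 h, and 3251 and 3460 at 4 h (0.74 ± 0.15, adjusted p = 0.0889). mt-Tv, the valine transfer RNA between the ribosomal RNAs, was at 699 and 870 RPKM at 0 h and 983 and 1226 at 4 h. mt-Tr had the largest change in the list, 2.56, but with 0 and 2 reads at 0 h and 5 and 10 at 4 h. mt-Th had the smallest, -0.42, from 131 and 84.9 RPKM at 0 h to 75.5 and 81.2 at 4 h.

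In ESC total RNA, mt-Nd6 was called lower at 4 h and 6 of the 7 measured mRNAs were called lower at 20 h, when both ribosomal RNAs were called higher. mt-Nd1 was at 1068 and 1097 FPKM at 0 h, 985 and 1132 at 4 h, and 346 and 348 at 20 h. mt-Co1 was at 2959 and 2924 FPKM at 0 h, 2549 and 3053 at 4 h, and 1981 and 1843 at 20 h. mt-Nd6 was at 207 and 216 FPKM at 0 h, 144 and 132 at 4 h, and 46.0 and 63.5 at 20 h. All 3 genes had both 20 h libraries below every other library, and mt-Nd1 and mt-Nd6 lost a larger part of their level than mt-Co1.

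At 20 h, 6 of the 12 members tested were called lower, where 67.8% of all features were called lower, and 2 were called higher, where 9.47% were. The median log2 change over all features was -0.76, so most of the transcriptome moved down on this scale. Of the summed FPKM of protein-coding features, mitochondrial mRNAs took 2.46% ± 0.139 at 0 h, 2.83% ± 0.0296 at 4 h and 2.78% ± 0.0862 at 20 h (SD, n = 2), so their part of coding RNA was not lower at 20 h. The changes were -1.95 ± 0.17 for mt-Nd6, -1.64 ± 0.14 for mt-Nd1, -1.55 ± 0.13 for mt-Nd2, -1.03 ± 0.13 for mt-Cytb, -0.95 ± 0.15 for mt-Nd5 and -0.62 ± 0.17 for mt-Co1, with limma adjusted p between 0.000131 and 0.0134. mt-Nd4 was not called (-0.44, adjusted p = 0.0523).

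Setting the median feature level between libraries (rescaling) separated the mRNAs into 3 groups at 20 h. mt-Nd1, mt-Nd2 and mt-Nd6 stayed lower, at -0.68, -0.59 and -1.0. mt-Cytb and mt-Nd5 were at -0.07 and 0.01 and lost their calls. mt-Co1 and mt-Nd4 turned higher, at 0.34 (adjusted p = 0.0319) and 0.51 (adjusted p = 0.0351). On the deposited scale the call of mt-Co1 also ended when replicate 1 or 2 of 0 h or replicate 2 of 20 h was left out, with adjusted p of 0.0914, 0.0707 and 0.0611.

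The ribosomal RNAs of the ESC series rose at 20 h. mt-Rnr1 was at 120 and 199 FPKM at 0 h, 787 and 287 at 4 h, and 1353 and 1501 at 20 h. mt-Rnr2 was at 599 and 668 FPKM at 0 h, 1209 and 635 at 4 h, and 1662 and 1916 at 20 h. The 20 h libraries of both lay above all others, and replicate 1 of 4 h lay far above replicate 2. The log2 changes at 20 h were 3.20 ± 0.47 for mt-Rnr1 (adjusted p = 0.000948) and 1.49 ± 0.30 for mt-Rnr2 (adjusted p = 0.00365).

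These libraries were depleted of ribosomal RNA, and the nuclear ribosomal feature AY036118 moved in the same table. It took 1.0% and 3.8% of the summed FPKM at 0 h and 15.2% and 6.0% at 4 h, and was listed at 0 at 20 h, where Gm26917 was the largest feature at about 11% in both. The part of depletion in the mt-Rnr1 and mt-Rnr2 values was not tested.

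At 4 h mt-Rnr1 was called higher (1.62 ± 0.47, adjusted p = 0.0489; background 4.47%) and mt-Nd6 lower (-0.62 ± 0.17, adjusted p = 0.0458; background 21.2%), and the other 10 members tested were not called. Both calls were lost when either 0 h replicate, replicate 1 of 4 h or replicate 1 of 20 h was left out; that of mt-Nd6 was lost without replicate 2 of 4 h and that of mt-Rnr1 without replicate 2 of 20 h. Neither gene was called after rescaling. In the separate whole-cell lysate (wcl) libraries, neither mt-Rnr1 (0.09) nor mt-Nd6 (-0.38) was called at 4 h. Between 4 and 20 h, 6 mRNAs were called lower (background 48.6%) and the ribosomal RNAs higher (background 7.86%): mt-Nd1 changed by -1.60 and mt-Co1 by -0.55, mt-Rnr1 by 1.58 and mt-Rnr2 by 1.03. The count of 8 fell to 5 without replicate 2 of 4 h or replicate 2 of 20 h, when the ribosomal RNAs and mt-Co1 were no longer called. mt-Co1 was also not called without either 0 h replicate or replicate 1 of 20 h, and mt-Nd5 without replicate 1 of 20 h.

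In fibroblasts derived from the same line, no mitochondrial gene was called at 4 h or 20 h. mt-Nd1 was at 698 and 724 FPKM at 0 h, 665 and 697 at 4 h, and 530 and 569 at 20 h. mt-Co1 was at 2565 and 2643 FPKM at 0 h, 2464 and 2366 at 4 h, and 2339 and 2251 at 20 h. mt-Rnr1 was at 146 and 116 FPKM at 0 h, 177 and 261 at 4 h, and 197 and 385 at 20 h. The 20 h libraries were below the 0 h libraries for mt-Nd1 and mt-Co1 and above them for mt-Rnr1, without overlap.

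Of the 11 members tested in iMEF, 0 were called at 20 h by limma, where 27.4% of features were called and 5491 had an unadjusted p under 0.05. The log2 changes at 20 h were -0.37 ± 0.12 for mt-Nd1 (adjusted p = 0.0686), -0.73 for mt-Nd6 (adjusted p = 0.137), -0.18 for mt-Co1 and 1.08 ± 0.34 for mt-Rnr1 (adjusted p = 0.0567). Leaving out replicate 1 of 0 h, either replicate of 4 h or replicate 1 of 20 h gave 1 call. At 4 h the background was 1.63%, with 3428 features at an unadjusted p under 0.05. ESC and iMEF values come from separate tables, and the difference between their changes was not tested.

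**Figure D2:**
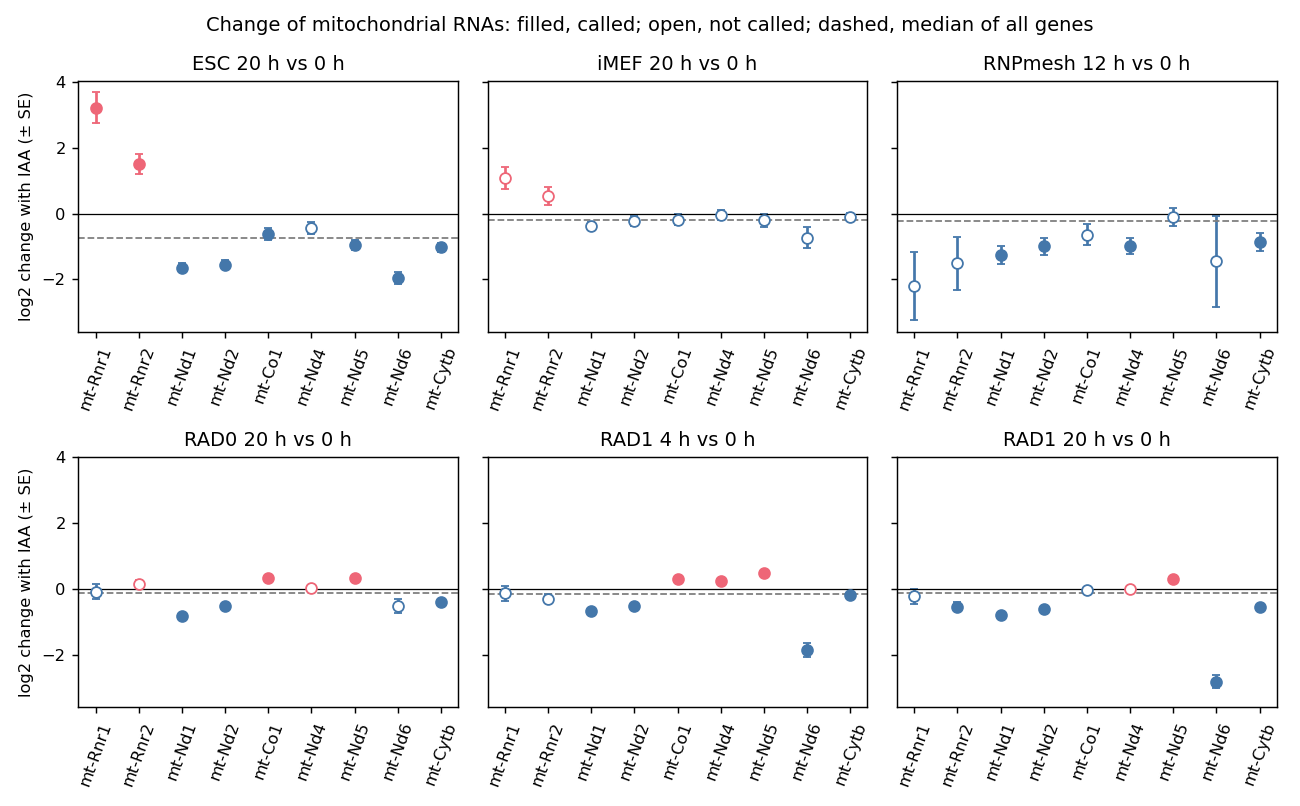
Log2 change against 0 h on the log2(value + 1) scale, with its SE, for the measured mitochondrial mRNAs and ribosomal RNAs in ESC, iMEF, RNPmesh, RAD0 and RAD1 libraries; filled points passed a limma adjusted p of 0.05 and the dashed line is the median of all features tested. In ESCs at 20 h mt-Rnr1 and mt-Rnr2 lie at 3.20 and 1.49 above the mRNAs, and in all 6 panels (ESC, iMEF and RAD0 at 20 h, RNPmesh at 12 h, RAD1 at 4 and 20 h) mt-Nd1 lies below mt-Co1.

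Among the cell fractions at 0 h, mitochondrial mRNAs were highest in the fraction called nucleoplasmic and lowest in the cytoplasmic one. mt-Co1 was at 7341 and 7859 FPKM in np, 2356 and 2427 in wcl, 830 and 1370 in chrRNP, and 251 and 265 in cyto. mt-Nd1 was at 2457 and 2737 FPKM in np, 831 and 931 in wcl, 266 and 434 in chrRNP, and 98.6 and 90.8 in cyto. No libraries of different fractions overlapped for these genes. As background, intact mitochondria pellet with nuclei at moderate speed, and no value here tells where in the cell the RNA had been.

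Between np and cyto at 0 h, 11 of 15 members were called higher, where 28% of all features were, and mt-Tm was called lower (-2.47; background 33.8%). The 7 measured mRNAs differed by 4.25 (mt-Nd5) to 4.87 (mt-Co1) on the log2 scale, mt-Rnr2 by 3.02 and mt-Rnr1 by 1.60. Between chrRNP and cyto, 8 members were called higher (background 14.3%), with mRNA differences of 1.28 (mt-Nd6) to 2.04 (mt-Co1), and mt-Tm, listed at 0 in both chrRNP libraries, was called lower (background 63.4%). Between chrRNP and np, 12 members were called lower (background 74.6%), the mRNAs by -3.27 to -2.63. After rescaling, 10 were, and mt-Rnr1 changed sign from -1.06 to 0.11. The call of mt-Rnr1 was also lost without replicate 2 of np at 0 h (-0.79, adjusted p = 0.0808).

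The summed nuclear markers Malat1, Neat1, Kcnq1ot1 and Rn7sk were 85577 to 94898 FPKM in np and 36136 to 37398 in cyto at 0 h. The summed cytosolic markers were 2600 to 2903 in np and 4497 to 4720 in cyto. Rn7sk made up most of the nuclear sum in np at 0 h. It took 13.3% and 14.0% of the summed FPKM of 629994 and 664176 in these libraries. In chrRNP at 0 h the nuclear markers summed to 17380 to 22219, less than in cyto, and the cytosolic ones to 578 to 1262. By the summed nuclear list chrRNP was therefore not enriched, but Malat1, Neat1 and Kcnq1ot1 are not given singly here. Mitochondrial mRNAs differed between np and cyto by more than either summed list did.

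After 4 h of IAA none of the 7 measured mRNAs was called in any of the 4 preparations. In np all 7 had both 4 h libraries below both 0 h libraries, with log2 changes of -0.63 to -0.20 and a median of -0.24. Over all features in np the median change was -0.29, and 23.4% were called lower. After rescaling, the median of the 7 in np was 0.04. How many of all features separated without overlap was not counted. mt-Co1 changed by 0.40 in chrRNP, -0.29 in np, 0.05 in cyto and -0.13 in wcl. The medians of all features were 0.21 in chrRNP, -0.29 in np, 0.04 in cyto and -0.23 in wcl. In wcl a single member was called, the transfer RNA mt-Tv, lower (background 13.5%) and listed at 0 in both 4 h libraries; that call was lost when any library of the comparison was left out.

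The ribosomal RNAs did change with IAA in np, cyto and chrRNP, and not all in 1 direction, while neither was called in wcl. mt-Rnr1 went from 118 and 172 FPKM to 281 and 274 in np (0.96 ± 0.31, adjusted p = 0.0387; background higher 7.43%). In cyto it went from 37.8 and 56.9 to 22.7 and 12.0 (-1.43 ± 0.31, adjusted p = 0.0188; background lower 1.41%), and in chrRNP from 64.1 and 71.2 to 28.6 and 32.3 (-1.13 ± 0.31, adjusted p = 0.0477; background lower 0.867%). The 0 h and 4 h libraries did not overlap in any of the 3 fractions. mt-Rnr2 was called in cyto, where it went from 86.9 and 68.7 to 46.0 and 38.9 (-0.85 ± 0.20, adjusted p = 0.0266). In wcl mt-Rnr1 went from 121 and 114 to 153 and 102 (0.09), and mt-Rnr2 from 441 and 443 to 421 and 366 (-0.17). Their limma adjusted p in wcl lay between 0.567 and 0.861.

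The difference between the np and cyto changes of mt-Rnr1 was itself called (2.39 ± 0.44, adjusted p = 0.0371; background higher 0.419%). These calls were fragile. That of mt-Rnr1 in cyto was lost without replicate 2 of cyto at 0 h or at 4 h (adjusted p = 0.149 and 0.177). Those in np and chrRNP and the call of the difference were lost without any 1 of their own np or chrRNP libraries, chrRNP replicate 2 at 0 h excepted. The call in chrRNP was also lost without any np or wcl library, the call in np without either wcl library of 0 h, and the call of the difference without any wcl library, either chrRNP library of 4 h or any cyto library but replicate 1 of 4 h. That of mt-Rnr2 in cyto was lost without any cyto library but replicate 2 of 0 h and without either wcl library of 0 h. AY036118 moved alongside: its FPKM went from 29610 and 64966 to 14823 and 4552 in cyto, from 5700 and 5905 to 427 and 249 in chrRNP, and from 1696 and 4782 to 7798 and 7957 in np. The part of ribosomal RNA depletion in these values was not tested.

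Transfer RNAs were rarely detected in the fractions. mt-Tm and mt-Tl1 were called higher in chrRNP at 4 h (background 7.95%), and both were listed at 0 in each 0 h library of that fraction. The difference between the chrRNP and cyto changes was called for mt-Tm (background 0.0924%). mt-Tv was called higher in cyto from a listed 0 (background 5.04%). An exact 0 can be a failed estimate in such short genes, and no fold is given. The calls of mt-Tl1 and mt-Tv were lost without any 1 library of their comparison, chrRNP replicate 2 of 0 h excepted, without which 7 members were called in chrRNP at 4 h.

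**Figure D3:**
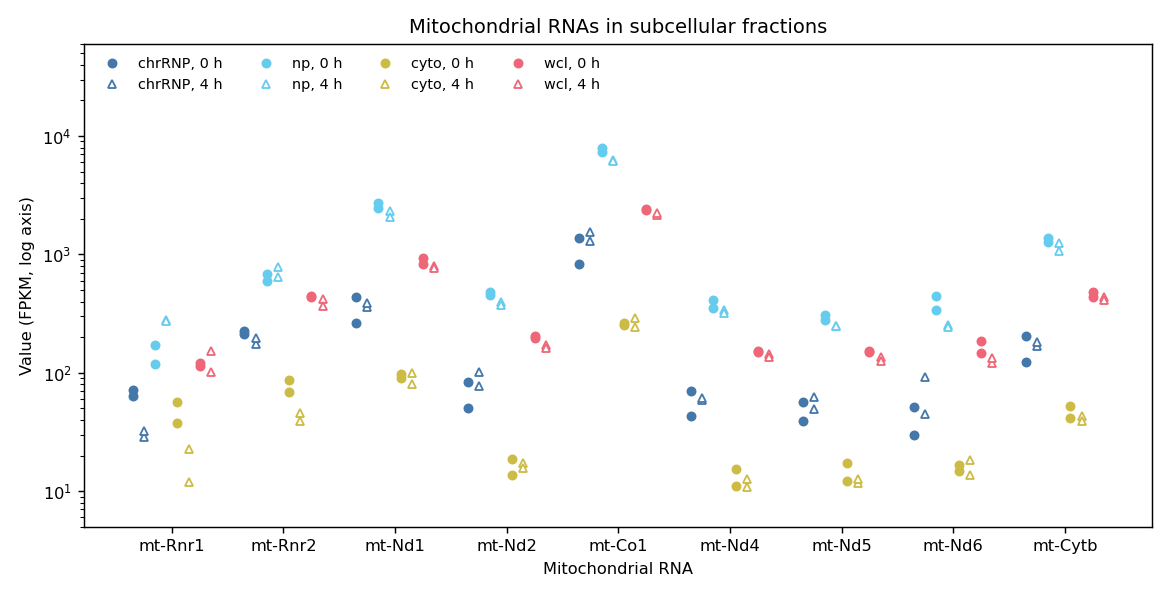
FPKM on a log axis of 7 mitochondrial mRNAs and 2 ribosomal RNAs in chrRNP, np, cyto and wcl libraries at 0 and 4 h of IAA; each point is 1 library. The mRNAs are highest in np and lowest in cyto at both times.

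In the detergent- and salt-resistant pellet, RNPmesh, 4 of the 7 measured mRNAs were called lower after 12 h of IAA. mt-Nd1 was at 2246 and 2074 FPKM at 0 h, 2153 and 2395 at 4 h, and 957 and 852 at 12 h. mt-Cytb was at 1352 and 1315 FPKM at 0 h, 1405 and 1534 at 4 h, and 671 and 805 at 12 h. mt-Nd5 was at 281 and 307 FPKM at 0 h, 359 and 443 at 4 h, and 229 and 332 at 12 h. For mt-Nd1 and mt-Cytb the 12 h libraries lay below all others, whereas for mt-Nd5 they overlapped the 0 h libraries. The summed nuclear marker RNAs in the same libraries were 3721 to 4341 FPKM at 0 h, 9200 to 9523 at 4 h and 12154 to 18374 at 12 h, and their part in these values was not tested.

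Of 9 members tested in RNPmesh, 4 were called lower at 12 h, where 31.6% of features were: mt-Nd1 (-1.26 ± 0.28, adjusted p = 0.00591), mt-Nd2 (adjusted p = 0.0114), mt-Nd4 (-0.99) and mt-Cytb (-0.86, adjusted p = 0.0271). mt-Co1 went from 4993 and 3619 FPKM to 2565 and 2909 and was not called (-0.64, adjusted p = 0.126). The count fell to 1 without replicate 1 of 0 h, when mt-Nd1 alone was called, and rose to 7 without replicate 2 of 12 h; the call of mt-Cytb was also lost without replicate 2 of 0 h, either 4 h replicate or replicate 1 of 12 h. Between 4 and 12 h, mt-Nd1 (-1.33) and mt-Nd2 (-1.13) were called lower (background 3.8%), and both calls were lost without either 4 h replicate.

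At 4 h no RNPmesh member was called by limma, where 24.6% of features were and 5009 had an unadjusted p under 0.05. Replicate 1 of 4 h stood apart. Its mt-Rnr1 was at 630 FPKM beside 33.3 in replicate 2, its mt-Nd6 at 747 beside 17.7, and Mir6236 took 19.3% and Gm42418 5.2% of its summed FPKM. Without replicate 2 of 4 h or either replicate of 12 h, 3 members were called at 4 h. Of the 0 h controls, replicate 2 was unusual too. Snord49b took 42.2% of its summed FPKM of 587804, beside a sum of 317956 in replicate 1. Mitochondrial members took 1.54% of the sum in replicate 2 and 3.35% in replicate 1. Every RNPmesh contrast against 0 h uses that library.

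In polyadenylated RNA of cells with and without retinoic acid, IAA shifted the balance among mitochondrial mRNAs: mt-Nd1 and mt-Nd2 fell, mt-Nd5 rose, and mt-Nd6 fell most in RAD1. mt-Nd1 in RAD0 was at 3699 and 3894 FPKM at 0 h, 4040 and 3799 at 4 h, and 2124 and 2160 at 20 h. In RAD1 it was at 2485 and 2399 at 0 h, 1536 and 1535 at 4 h, and 1395 and 1439 at 20 h. The lower level was therefore present at 4 h in RAD1 but not in RAD0, with no overlap between RAD1 0 h and 4 h libraries.

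The cytochrome oxidase mRNA did not follow. mt-Co1 in RAD0 was at 5082 and 5099 FPKM at 0 h, 5132 and 4843 at 4 h, and 6509 and 6437 at 20 h. In RAD1 it was at 4620 and 4641 at 0 h, 5685 and 5724 at 4 h, and 4459 and 4721 at 20 h. mt-Co1 was thus higher at 20 h in RAD0 and higher at 4 h but not at 20 h in RAD1.

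mt-Nd6, from the other strand and known to carry little or no poly(A) tail, had the largest change of the 7 measured mRNAs in RAD1; in RAD0 at 20 h mt-Nd1 had. In RAD1 it was at 289 and 312 FPKM at 0 h, 97.6 and 69.2 at 4 h, and 39.3 and 45.3 at 20 h. In RAD0 it was at 300 and 274 at 0 h, 255 and 378 at 4 h, and 224 and 180 at 20 h. The RAD1 libraries of the 3 times did not overlap, and in RAD0 the 20 h libraries were below the others. The level of mt-Nd6 in these libraries is what the poly(A) selection left, and the part of selection in its changes was not tested.

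In RAD0 at 20 h, 3 of the 13 members tested were called lower, where 33% of features were: mt-Nd1 (-0.83 ± 0.05, adjusted p = 4.45e-06), mt-Nd2 (-0.52) and mt-Cytb (-0.40). 2 members were called higher, mt-Co1 (0.35 ± 0.05, adjusted p = 0.00079) and mt-Nd5 (0.33, adjusted p = 0.0145), where 18.4% of features were; the call of mt-Nd5 was lost without replicate 1 of 0 h or replicate 2 of 20 h (adjusted p = 0.0742 and 0.0886). mt-Nd6 was not called (-0.51, adjusted p = 0.0703). At 4 h mt-Cytb alone was called, higher by 0.20 ± 0.05 (adjusted p = 0.035; background higher 5.26%), and this call was lost when any 0 h or 4 h library of RAD0 or RAD1 was left out.

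In RAD1 at 4 h, 6 members were called lower, where 32.7% of features were, and 3 higher, where 18.1% were. The lower mRNAs were mt-Nd6 (-1.85 ± 0.21, adjusted p = 0.000134), mt-Nd1 (-0.67), mt-Nd2 (-0.50) and mt-Cytb (-0.17, adjusted p = 0.0283), and the transfer RNAs mt-Tl1 and mt-Tp went to a listed 0. The higher mRNAs were mt-Nd5 (0.50, adjusted p = 0.0018), mt-Co1 (0.30, adjusted p = 0.0019) and mt-Nd4 (0.24, adjusted p = 0.0292). The calls of mt-Cytb and mt-Nd4 were lost without any 1 of the 4 libraries compared, and mt-Cytb (-0.03) and mt-Tl1 were not called after rescaling. In RAD1 the call of mt-Tl1 was lost at 4 and 20 h without any RAD1 library or either RAD0 library of 20 h.

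At 20 h in RAD1, 7 members were called lower (background 33.8%) and 1 higher (background 23.1%). mt-Nd6 changed by -2.80 ± 0.21 (adjusted p = 6.86e-06), mt-Nd1 by -0.78, mt-Nd2 by -0.61, mt-Cytb by -0.55, mt-Rnr2 by -0.53 and mt-Nd5 by 0.32. Without replicate 2 of 20 h the count of 8 fell to 5, with mt-Rnr2, mt-Nd5 and mt-Tl1 no longer called; mt-Nd5 was also not called without replicate 2 of 0 h.

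The IAA changes differed between RAD1 and RAD0. At 4 h the difference (RAD1 change minus RAD0 change) was -1.97 for mt-Nd6 (adjusted p = 0.0018), -0.71 for mt-Nd1 (adjusted p = 0.000297), -0.59 for mt-Nd2 (adjusted p = 0.00058), -0.37 for mt-Cytb (adjusted p = 0.00811) and 0.33 for mt-Co1 (adjusted p = 0.0138). Those 4 lower and 1 higher calls compare with 14.5% and 12.7% of all features. The part of poly(A) selection in the mt-Nd6 differences was not tested. Without replicate 1 of RAD0 at 0 h, 8 members were called. The call of mt-Co1 was lost without replicate 2 of RAD0 at 4 h or either replicate of RAD1 at 4 h. At 20 h the difference was -2.29 for mt-Nd6, -0.36 for mt-Co1 and -0.68 for mt-Rnr2, 3 lower calls where 11.6% of features were called; that of mt-Rnr2 was lost without either 0 h replicate of either condition or replicate 2 of RAD1 at 20 h. Before IAA, mt-Nd1 (-0.64), mt-Cytb (-0.62), mt-Nd2 (-0.42) and mt-Nd4 (-0.42) were lower in RAD1 than in RAD0 (background 19%), and without replicate 1 of RAD0 at 0 h 7 members were called.

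Other RNAs moved with these groups. The summed nuclear marker RNAs were 320 to 350 FPKM in RAD0 at 0 h, 424 to 453 at 4 h and 2206 to 2222 at 20 h. In RAD1 they were 293 to 311 at 0 h, 1596 to 1692 at 4 h and 1669 to 1724 at 20 h. The summed trophoblast list in RAD0 was 2.68 to 3.09 FPKM at 0 h and 9.96 to 10.6 at 20 h, and in RAD1 it was 10.3 to 11.05 at 0 h and 54.9 to 55.97 at 20 h. The summed ESC list in RAD0 was 2644 to 2649 at 0 h and 1591 to 1806 at 20 h, and in RAD1 it was 1640 to 1760 at 0 h and 1235 to 1438 at 20 h. The summed endoderm list in RAD1 was 11.5 to 12.4 at 0 h, 3.66 to 4.28 at 4 h and 3.34 to 3.61 at 20 h. The part of these RNAs in the mitochondrial values was not tested.

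The balance among mRNAs within a library does not depend on how libraries were scaled, and here it moved. The FPKM ratio of mt-Nd1 to mt-Co1 in ESCs was 0.361 and 0.375 at 0 h, 0.386 and 0.371 at 4 h, and 0.175 and 0.189 at 20 h. In RAD0 it was 0.728 and 0.764 at 0 h, 0.787 and 0.784 at 4 h, and 0.326 and 0.335 at 20 h. In RAD1 it was 0.538 and 0.517 at 0 h, 0.270 and 0.268 at 4 h, and 0.313 and 0.305 at 20 h. The libraries of the lower times and those of 0 h did not overlap in any of the 3 series, and the lower ratio came by 4 h in RAD1 and by 20 h in the others.

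In iMEF the same ratio was 0.272 and 0.274 at 0 h and 0.227 and 0.253 at 20 h. In RNPmesh it was 0.450 and 0.573 at 0 h and 0.373 and 0.293 at 12 h, and in neither series did the libraries of the 2 times overlap. In the sucrose gradient, with 1 library each, it was lower at 12 h in all 8 fractions, for example 0.915 and 0.442 in fraction 2 and 0.457 and 0.395 in fraction 5. In the nascent libraries it stayed within 0.640 to 0.738 across all 4 times. The ratio of mt-Cytb to mt-Co1 also fell, from 0.176 and 0.187 to 0.128 and 0.146 at 20 h in ESCs and from 0.603 and 0.615 to 0.364 and 0.365 at 20 h in RAD0. With 2 libraries per group these ratios were not tested. Whether reads of a partial nuclear copy enter the mt-Co1 values was not checked.

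**Figure D4:**
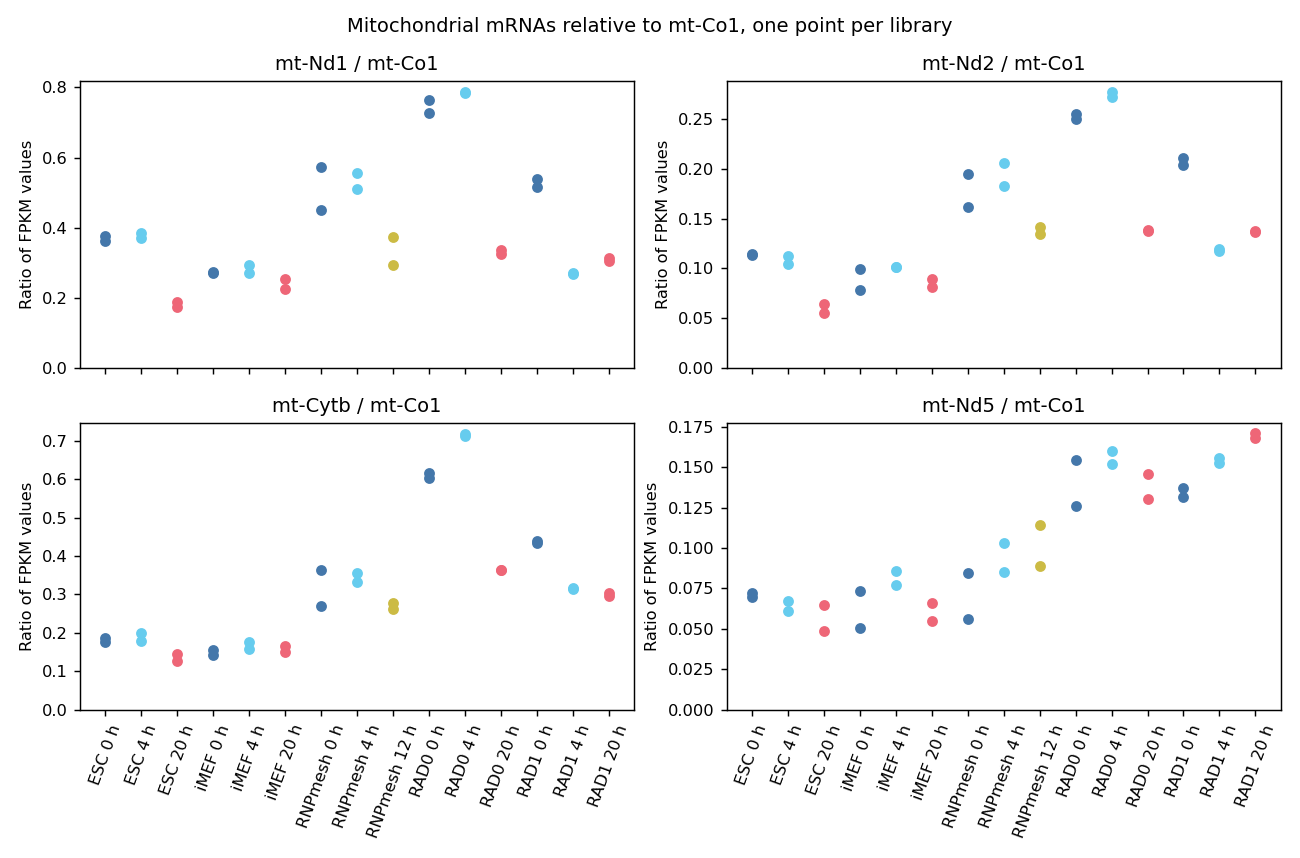
FPKM ratio of mt-Nd1, mt-Nd2, mt-Cytb and mt-Nd5 to mt-Co1 in each ESC, iMEF, RNPmesh, RAD0 and RAD1 library by hours of IAA; each point is 1 library. The ratio of mt-Nd1 to mt-Co1 drops by 20 h in ESC and RAD0 libraries and by 4 h in RAD1 libraries, while that of mt-Nd5 does not drop in RAD0 or RAD1.

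In the sucrose gradient of native nuclear lysate, where larger assemblies sediment to higher fractions, the FPKM of mitochondrial RNAs lay at higher fraction numbers after 12 h of IAA. FPKM is relative within each library, and its sum at 0 h was 753233 in fraction 2 and 131766 in fraction 9. The amount of RNA in each fraction is not known here. These values therefore do not show how the molecules were spread over the gradient. With 1 library per fraction and time there is no replicate check and no test. mt-Rnr1 was at 93.4, 1946, 2416, 865, 288, 127, 60.4 and 45.0 FPKM in fractions 2 to 9 at 0 h, and at 56.2, 777, 2376, 3414, 1272, 381, 133 and 76.5 at 12 h. Its highest value moved from fraction 4 to fraction 5, and its mean fraction, weighted by FPKM, from 4.03 to 4.84. mt-Rnr2 was highest in fraction 5 at both times, at 10805 and 11945 FPKM, but its fraction 6 value went from 4576 to 11365, and its mean fraction from 4.99 to 5.74.

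The mRNAs moved less. The mean fraction went from 4.57 to 5.01 for mt-Nd1 and from 4.78 to 5.26 for mt-Co1, whose highest value moved from fraction 5 (4783 FPKM) to fraction 6 (5747 FPKM). The shift was 0.71 of a fraction for mt-Nd2, 0.56 for mt-Cytb, 0.54 for mt-Nd5, 0.51 for mt-Nd4 and 0.45 for mt-Nd6. The transfer RNA mt-Tm stayed near the top of the gradient, at a mean fraction of 2.61 and 2.69. Of the members, 13 had a summed FPKM of 80 or more at both times, and all 13 had a higher mean fraction at 12 h, with a median shift of 0.556, beside 0.477 over 3428 genes at that level, of which 97.0% moved up. Over all members above 0 at both times, which adds mRNAs near 0 in these libraries, 17 of 17 moved up, beside 78.8% of all genes. With libraries scaled to the same total 16 of 17 did, beside 79.4% of all genes. Over fractions 3 to 8 alone 14 of 17 did, near the 77.0% of all genes, with a median of 0.423 beside 0.298 over all genes. On this relative scale most abundant RNAs thus moved as the mitochondrial ones did.

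**Figure D5:**
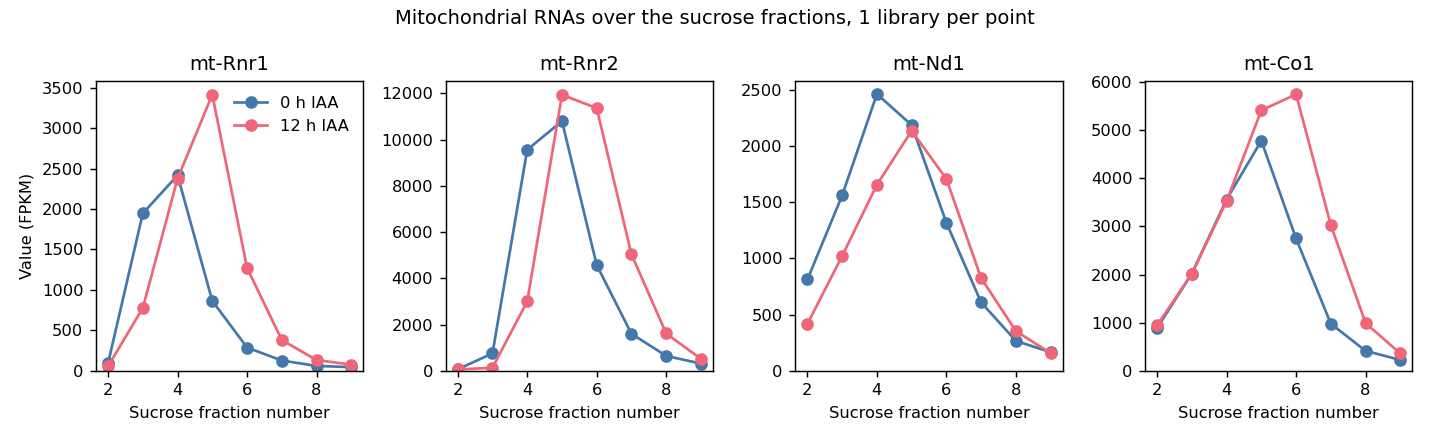
FPKM of mt-Rnr1, mt-Rnr2, mt-Nd1 and mt-Co1 across sucrose gradient fractions 2 to 9 at 0 and 12 h of IAA, 1 library per point. The mt-Rnr1 profile is highest in fraction 4 at 0 h and in fraction 5 at 12 h, and the mt-Co1 profile in fractions 5 and 6.

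Nuclear genes that act on mitochondrial RNA or DNA were followed in the same tables, as a list of 43 of which 42 were found. In nascent RNA at 4 h, 0 of the 32 tested were called by limma, close to the 1.57% higher and 0.338% lower of all features. Their median log2 change was -0.09, beside -0.03 over all features. In ESC total RNA at 4 h, 8 of 41 were called lower and 0 higher, a share close to the 21.2% of all features called lower. Trmt10c, a subunit of mitochondrial RNase P, changed by -0.84.

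At 20 h in ESCs, 39 of 41 were called lower and 0 higher, where 67.8% of all features were called lower, and after rescaling 20 were lower and 1 higher. Hsd17b10, another subunit of mitochondrial RNase P, went from a mean of 33.7 to 7.82 FPKM (-1.98). Slirp, which stabilises mitochondrial mRNAs together with Lrpprc, was at 12.9 and 10.6 FPKM at 0 h, 10.7 and 8.82 at 4 h, and 1.47 and 2.61 at 20 h (-2.08), whereas Lrpprc changed by -1.10. Polrmt, the mitochondrial RNA polymerase, was at 10.0 and 8.72 FPKM at 0 h and 4.43 and 5.01 at 20 h (-0.86), and was at -0.03 after rescaling.

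In RAD0 at 20 h, 24 of 42 were called lower and 2 higher, beside 33% and 18.4% of all features. Slirp was at 59.5 and 56.2 FPKM at 0 h, 59.0 and 57.6 at 4 h, and 26.2 and 18.3 at 20 h (-1.36), while Lrpprc changed by -0.22. In RAD1, 8 of 42 were called lower and 6 higher at 4 h, both smaller shares than the 32.7% and 18.1% of all features. Slirp was at 40.9 and 43.8 FPKM at 0 h, 17.4 and 18.6 at 4 h, and 20.6 and 27.3 at 20 h, with changes of -1.19 and -0.81. Hsd17b10 changed by -0.75 at 4 h and -1.02 at 20 h, and Lrpprc by 0.20 at 4 h. Other genes of small p went up. Mtpap was called higher at 4 h (0.44, limma adjusted p = 0.00028) and at 20 h (0.31), and Mterf3 at 4 h (0.59). The 4 h change in RAD1 minus that in RAD0 was 0.71 for Mtpap, 0.66 for Mterf3, -0.71 for Hsd17b10 and -1.20 for Slirp. In iMEF 0 were called at 4 h, 10 of 41 were called lower at 20 h, near the 22.2% of all features, and 2 after rescaling. Slirp was at -0.21 at 20 h in iMEF and not called. Whether these genes play a part in the mitochondrial values was not tested.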

How the data were processed

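Per the submitters' processing notes, reads were handled with Trim Galore, TopHat2 2.0.11, Cufflinks 2.0.2 and bedtools; the sources used here do not give the role of each tool, the use of strand or any scaling to spike-in RNA. The authors deposited RPKM for the nascent table and FPKM for the other 6. The FPKM files hold no read counts, so their depth is unknown. In the nascent table, RPKM times length gave whole reads (tolerance 0.1), and the RPKM scale gave the library size. Mates of a pair were taken as separate reads, also for limma-voom, so read numbers exceed those of fragments.

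Groups came from the sample labels. The labels do not say that replicates were separate cultures, so p-values measure the spread between these libraries, which may be technical. log2(value + 1) of features at 1 or more in at least 2 libraries was fitted with limma 3.58.1 (R 4.3.3; trend, all groups of a table in 1 model, 27 contrasts), with Benjamini-Hochberg adjustment over all features tested and a threshold of 0.05. A fold on this scale understates changes of low genes. SD and SE are given with n = 2 per group. Shares, ratios and mean sucrose fractions (Python 3.11.15) were not tested. Fits were tested on simulated data.

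Named members are the mRNAs and ribosomal RNAs, the 4 most abundant transfer RNAs of a table and those with the largest and smallest change. Of the nuclear genes, those of smallest p were to be named; Polrmt, Slirp and Lrpprc at times outside that rule were chosen after their values were seen. Members and lists were chosen with earlier results of these data known. Alternatives were the replicate block, rescaled libraries, a smaller pseudocount (0.1), all features without the filter, no trend, leaving out each library and, added after seeing the data, limma-voom on the recovered reads. Other samples and peak files were not used here.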

Additional observations from a re-analysis of the deposited data

Results flagged for a closer look

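For 10 results, the change with IAA differed between 2 conditions by a limma contrast of the changes themselves (adjusted p under 0.05). Between chrRNP and cyto at 4 h, the change of mt-Tm differed by 10.56, with mt-Tm listed at 0 in both chrRNP libraries at 0 h, so the size is no fold. Between np and cyto at 4 h, the change of mt-Rnr1 differed by 2.39. Between RAD1 and RAD0 at 4 h, the change differed by -1.97 for mt-Nd6, -0.71 for mt-Nd1, -0.59 for mt-Nd2, -0.37 for mt-Cytb and 0.33 for mt-Co1. Between RAD1 and RAD0 at 20 h, it differed by -2.29 for mt-Nd6, -0.68 for mt-Rnr2 and -0.36 for mt-Co1. For mt-Nd6 and mt-Rnr2 these levels are what the poly(A) selection left, and its part was not tested. With 2 libraries per group, no group was large enough for a check of single outlying samples.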

How the results depend on the processing

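Of 116 calls of a member in a contrast, 101 were kept with a pseudocount of 0.1, 75 without the filter, 103 after rescaling, 109 without the trend and 71 in every fit that left out 1 library. By limma-voom, 14 of 14 nascent calls were kept and 12 members were called at 2 h, with its share of all features called not given. Rescaling reversed 4 values: mt-Co1 in ESCs at 20 h (0.34 against 0 h and 0.032 against 4 h), mt-Nd5 in ESCs at 20 h (0.0055) and mt-Rnr1 between chrRNP and np (0.11). The cause was not tested.

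Replicate numbers were shared between groups, but same-numbered libraries did not deviate together (correlations -0.14 to 0.15 over the tables), so the numbers are not shown to pair them. With the replicate block 91 of 116 calls were kept; the members called became 0 for nascent RNA at 4 h (main 14), ESC at 4 h (main 2), RAD0 at 4 h and the np minus cyto difference (main 1 each), and 1 for iMEF at 20 h (main 0).

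Members called with a pseudocount of 0.1 were 1 for nascent RNA at 4 h, 1 for ESC at 4 h and 0 for np minus cyto. Without the filter they were 0 for nascent RNA, ESC, np and RAD0 at 4 h and for RNPmesh 12 h against 4 h, 5 for ESC 20 h against 4 h and for RAD1 at 4 h, 1 for iMEF at 20 h, chrRNP at 4 h, RNPmesh at 4 h and RAD1 minus RAD0 at 20 h, and 3 for RAD1 minus RAD0 at 4 h. After rescaling they were 0 for ESC at 4 h, 2 for np and for RAD0 at 4 h, 4 for RNPmesh 12 h against 4 h and 7 for RAD1 against RAD0. Without the trend they were 1 for ESC at 4 h and iMEF at 20 h, 2 for np at 4 h, 4 for RNPmesh 12 h against 4 h and 0 for RAD0 at 4 h.

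Leaving out 1 library gave 0 for nascent RNA at 4 h, 0 to 2 for ESC at 4 h, 7 to 9 at 20 h and 5 to 8 for 20 h against 4 h, and 0 to 1 for iMEF at 20 h. In the fractions it gave 1 to 7 for chrRNP, 0 to 2 for np, 0 to 3 for cyto and 0 to 1 for wcl, 1 to 3 for chrRNP minus cyto and 0 to 2 for np minus cyto. It gave 0 to 3, 1 to 7 and 0 to 6 for RNPmesh at 4 h, 12 h and 12 h against 4 h, 0 to 1 and 5 to 7 for RAD0 at 4 and 20 h, 6 to 9 and 5 to 8 for RAD1, 4 to 7 for RAD1 against RAD0, and 4 to 8 and 2 to 4 for RAD1 minus RAD0 at 4 and 20 h.

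As a percentage of the summed value of protein-coding features in place of all features, mitochondrial mRNAs took 36.9, 38.6, 43.2 and 52.3 of nascent RNA in order of time and 2.46, 2.83 and 2.78 of ESC RNA at 0, 4 and 20 h. The nascent figures are shares of summed RPKM, where reads are divided by the whole gene span, introns included. They are not shares of reads. Of all reads, mitochondrial mRNAs took 1.22% at 0 h and 2.34% at 4 h of nascent RNA. They were at 2.26 and 2.14 in chrRNP, 5.76 and 5.99 in np and 0.137 in cyto at 4 h, and 2.03 in wcl at 4 h (chrRNP and np at 0 and 4 h), at 4.03, 5.26 and 2.82 in RNPmesh, 5.10, 5.77 and 5.80 in RAD0 and 4.18, 4.78 and 3.91 in RAD1, in order of time. Depth is known only for the nascent table.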
